A study of Homo sapiens with 6 samples.

Results

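The chromosome 19 zinc finger genes were followed through a knockdown of MEP50 in LNCaP, an androgen-responsive human prostate cancer cell line. A gene was included if its name was ZNF followed by digits and at most 1 letter, if its first listed exon lay on chromosome 19, and if its raw counts summed to at least 120 over the 6 libraries. Of 63299 genes in the count table, 236 met the rule, and 25 further ZNF genes of chromosome 19 fell under the count minimum. The members were thus chosen by their names, position and summed raw counts. ZNF208 (129 reads) and ZNF676 (139 reads) lay just above the minimum, and ZNF888 (110 reads) and ZNF257 (70 reads) just below it. By GENCODE 29, 228 of the 236 are protein coding and 8 are pseudogenes.

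MEP50, encoded by WDR77, is the WD-repeat partner of the arginine methyltransferase PRMT5. By their titles the 3 knockdown libraries came from cells given doxycycline, which switches on a short hairpin RNA against MEP50, and the 3 libraries without knockdown came from cells given none. RNA was sequenced in bulk from LNCaP cells in both groups, and the series calls the 3 samples of a group biological replicates. Neither the length of the treatment nor the hairpin sequence is given in the sources used here. The drug came only together with the knockdown, so the drug and the knockdown cannot be told apart.

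Chromosome 19 carries the densest runs of C2H2 zinc finger genes in the human genome, most of them made by tandem duplication. Each finger is a short loop that folds around a zinc ion and reads a few bases of DNA, and a row of fingers gives a protein its binding sequence. Most of these proteins also carry a KRAB domain, which recruits the corepressor TRIM28 (KAP1) and through it the histone methyltransferase SETDB1 and HP1 proteins. KRAB zinc finger proteins are best known for silencing retrotransposons, and some act on ordinary genes.

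The libraries held 18568002, 36001219 and 20682236 counted reads in the knockdown group and 27509105, 29943841 and 36234784 reads in the group without knockdown. Levels are given as CPM, counts scaled to a common library total. WDR77 had 15.0, 14.0 and 12.7 CPM in knockdown libraries and 49.3, 47.2 and 36.7 CPM without knockdown, a log2 fold change of -1.67 (SE 0.16, adjusted p = 0.00131, edgeR). The 10 prostate luminal markers were all detected, and their summed level was 6134 to 6341 CPM in knockdown libraries and 8195 to 9786 CPM without knockdown. Among markers of other cell types KRT5 had 0 reads in all 6 libraries, and the 3 basal markers summed to at most 0.229 CPM in knockdown libraries and 1.11 CPM without knockdown. The 4 blood markers summed to 1.11 to 1.55 CPM in knockdown libraries and 1.07 to 1.88 CPM without knockdown, and the 5 stromal markers to 11.2 to 16.1 CPM in knockdown libraries and 7.10 to 15.2 CPM without. The 3 endothelial markers, nearly all of it VWF, summed to 10.5 to 26.0 CPM in knockdown libraries and 18.6 to 39.0 CPM without. In bulk RNA, fewer cells of a type and less RNA per cell cannot be told apart. The part of these marker levels in the results below was not tested.

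Few chromosome 19 zinc finger genes were called. Of the 236 genes, 7 rose (ZNF826P, ZNF812P, ZNF154, ZNF524, ZNF577, ZNF91 and ZNF561), 1 fell (ZNF677) and 228 did not pass the test, which was a quasi-likelihood F test in edgeR with an adjusted p under 0.05 over all 21101 tested genes. The 8 called genes are 3.39% of the members (2.97% higher and 0.424% lower), beside 7.60% of all tested genes (2.72% higher and 4.88% lower). The members' median log2 fold change was 0.03, between -0.04 and 0.11 with any 1 library left out, with quartiles of -0.12 and 0.20, beside a median of 0.00 and quartiles of -0.28 and 0.31 over all tested genes. An unadjusted p under 0.05 was reached by 36 members (15.3%), beside 24.7% of all tested genes.

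Together the members held 8430, 7759 and 7602 CPM in the knockdown libraries and 8399, 7426 and 7548 CPM in the libraries without knockdown. The ranges of the groups overlapped, the highest value of each group was its replicate 1, and each knockdown library was above the library of the same number. As a share of all counted reads, with no TMM scaling, the members made up 0.848%, 0.797% and 0.803% in knockdown libraries and 0.787%, 0.745% and 0.730% without knockdown, and on that scale the groups did not overlap. The mean sums were 7930 ± 440 CPM in knockdown cells and 7791 ± 530 CPM in cells without knockdown (SD, n = 3 libraries each), a ratio of 1.02. Taken pair by pair by replicate number, the median log2 difference of the members was 0.01, 0.09 and -0.01.

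Most members were measured closely. The median standard error of a member's log2 fold change was 0.16, against 0.23 over all tested genes. For 205 members (86.9%) the whole 95% interval of the log2 fold change lay within 1 log2 unit of no change, against 60.2% of all tested genes, and for 100 members it lay within 0.5. The members' median level was 23.4 CPM against 9.83 CPM over all tested genes, and only members had to reach 120 raw counts. The part of level in these differences was not tested. Of the 236, 24 members had a fitted log2 fold change of 0.5 or more in size, and 5 had 1 or more. Those 5 were ZNF826P, ZNF812P, ZNF154 and ZNF556, which were higher, and ZNF887P, which was lower, with values given below.

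**Figure D1:**
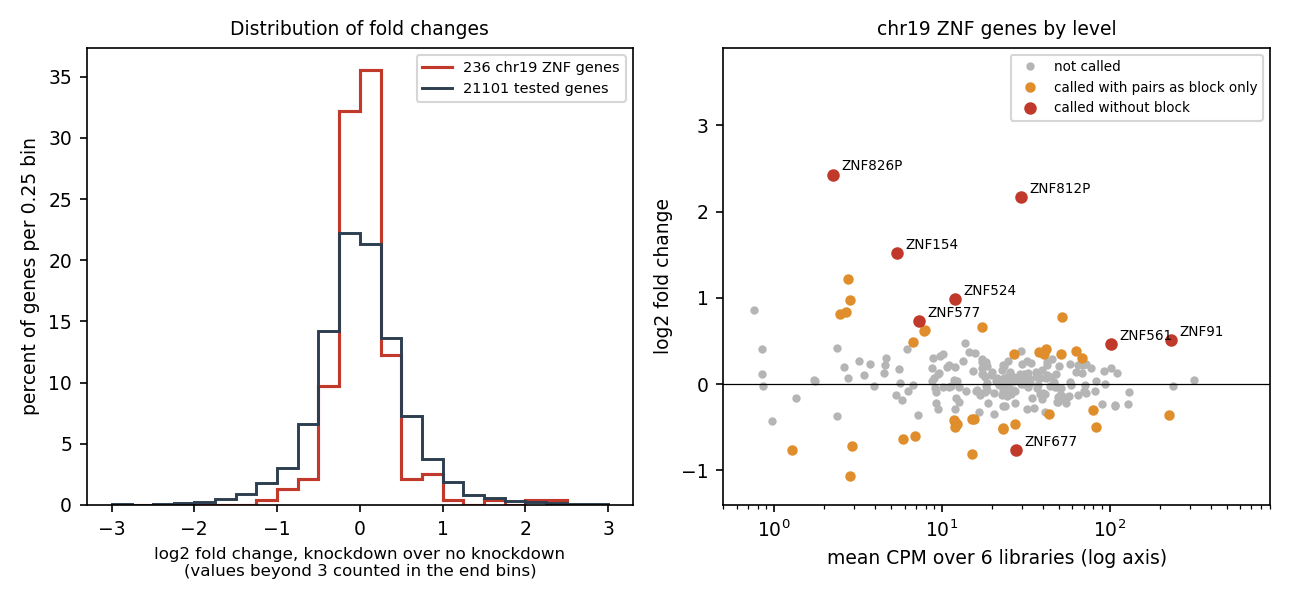
Left, the share of genes (percent per 0.25 bin) at each log2 fold change, knockdown over no knockdown, for the 236 chromosome 19 zinc finger genes and for all 21101 tested genes. Right, each member's log2 fold change against its mean CPM over 6 libraries on a log axis. The 8 called genes are in red, and those called only with the replicate pairs as a block are in orange. Most members lie close to 0, with a wider spread at low levels, and ZNF826P and ZNF812P stand highest.

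Libraries of the same number were taken as pairs, though the titles give the numbers and state no pairing. A fit that took each pair as a block called more members. It left 2 residual degrees of freedom, against 4 without the block. With the block 23 members rose (9.75%) and 20 fell (8.47%), 18.2% of 236, beside 26.1% of all tested genes (11.2% higher and 14.9% lower). All 8 genes named above were also called there in the same direction. Without regard to any test, the 3 knockdown values lay wholly above the 3 values without knockdown for 34 members and wholly below for 22. These 56 are 23.7% of the members, beside 30.4% of all tested genes (13.4% higher and 17.0% lower).

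The 2 largest rises were in pseudogenes. ZNF826P, a transcribed pseudogene at chr19:20340269-20424969 (hg38, minus strand), had 5.19, 3.00 and 3.21 CPM in knockdown libraries and 0.776, 0.666 and 0.657 CPM without knockdown. All knockdown values were several times above all values without knockdown, though these rest on few reads, 97, 111 and 70 in knockdown libraries and 20, 20 and 23 without. Its log2 fold change of 2.43 (SE 0.30) had an adjusted p of 0.0034 in edgeR, and it ranged from 2.14 to 2.58 when any 1 library was left out.

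ZNF812P, a transcribed pseudogene at chr19:9689924-9700817 (minus strand), had 50.3, 54.5 and 39.8 CPM in knockdown libraries and 14.4, 10.7 and 7.08 CPM without knockdown. The groups were far apart, and the gene was the most abundant of the 5 that moved by 1 log2 unit or more. The fitted log2 fold change of 2.17 (SE 0.26) had an adjusted p of 0.0026 in edgeR and stayed between 1.94 and 2.49 with 1 library left out. Of its 50-base transcript words 9.43% also occur in other genes, 8.29% in ZNF562, its closest copy. ZNF562 had a log2 fold change of -0.09 (adjusted p = 0.706).

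ZNF154 was the coding member with the largest rise. It encodes a KRAB zinc finger protein whose gene start is a known site of DNA methylation in many tumours. ZNF154 had 7.18, 8.41 and 8.43 CPM in knockdown libraries and 2.37, 3.53 and 2.48 CPM without knockdown, with no overlap. In edgeR the log2 fold change of 1.52 (SE 0.22) had an adjusted p of 0.0059 and stayed between 1.43 and 1.70 with 1 library left out. The gene lies at chr19:57697367-57709194 (minus strand). Its neighbours had negative values. ZNF671 had a log2 fold change of -0.50 (adjusted p = 0.106, and 0.0174 with the block). ZNF551, whose span encloses ZNF154, had -0.32 (adjusted p = 0.209).

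The other 5 called genes moved less, and each lost its call when some single library was left out. ZNF524 is a short protein known to bind telomeric repeats, with 4 fingers and no KRAB box by the pattern search given below. It had 13.4, 18.1 and 16.0 CPM in knockdown libraries and 6.25, 9.03 and 8.68 CPM without knockdown. Knockdown values were all higher, by 0.99 on the log2 scale (SE 0.20, adjusted p = 0.0217, edgeR), and the adjusted p reached 0.0930 without knockdown replicate 2 or 3 or replicate 3 of the other group. Its exons overlap FIZ1 on the other strand over 14.1% of their length, and the strand setting of the counting is not given in the sources used here.

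ZNF677, a KRAB zinc finger gene reported as silenced by methylation in several carcinomas, was the only member that fell in the fit without the block. It had 22.3, 18.7 and 20.6 CPM in knockdown libraries and 32.6, 33.2 and 38.5 CPM without knockdown. Every knockdown value was below every value without knockdown. ZNF677 fell by 0.76 on the log2 scale (SE 0.15, adjusted p = 0.0172, edgeR), and the adjusted p reached 0.0834 when knockdown replicate 2 or 3 or replicate 3 without knockdown was left out.

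ZNF577 had 9.75, 9.46 and 8.29 CPM in knockdown libraries and 5.70, 5.73 and 5.11 CPM without knockdown, a log2 fold change of 0.73 (SE 0.17, adjusted p = 0.0373, edgeR). The groups did not overlap. AC074141.1 covers 41.6% of its exon length on the same strand, so reads there cannot be given to 1 of the genes with certainty. ZNF561, which lies near ZNF812P on the chromosome, had 121, 113 and 119 CPM in knockdown libraries and 91.0, 78.1 and 87.4 CPM without knockdown, a log2 fold change of 0.46 (SE 0.12, adjusted p = 0.0448, edgeR). The knockdown libraries were again all higher. Both calls ended without any 1 of the 6 libraries, with adjusted p up to 0.125 for ZNF577 and 0.137 for ZNF561.

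ZNF91, known to silence SVA retrotransposons in human cells, was the most abundant of the called genes. The pattern search given below found 31 fingers in its protein. It had 283, 256 and 282 CPM in knockdown libraries and 190.3, 193 and 192 CPM without knockdown. The 3 values without knockdown lay very close together, and all knockdown values were above them. The rise was 0.51 on the log2 scale (SE 0.11, 95% interval 0.26 to 0.76, adjusted p = 0.0277, edgeR), and the call ended without any 1 of the 6 libraries (adjusted p up to 0.102). ZNF91 alone made up 3.45% of the members' summed CPM in knockdown cells and 2.46% in cells without knockdown.

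**Figure D2:**
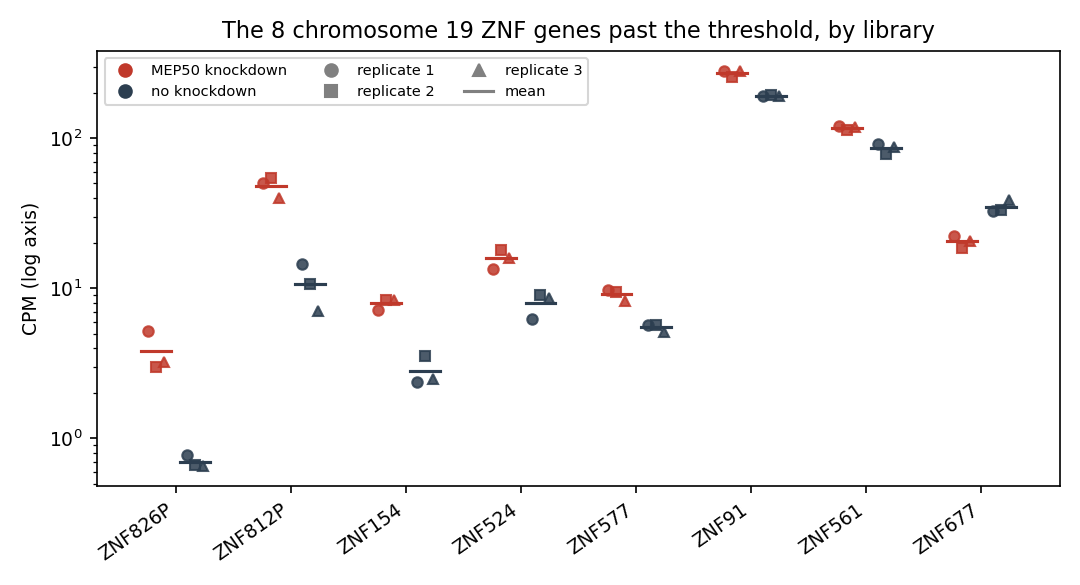
CPM in each library (log axis) of the 8 called chromosome 19 zinc finger genes, knockdown left of no knockdown, 1 point a library. The 3 knockdown points lie above the 3 points without knockdown for 7 genes and below them for ZNF677.

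Several members with a described role did not pass the test. ZNF93, which silences L1 retrotransposons, had 19.4, 13.6 and 13.4 CPM in knockdown libraries and 21.7, 17.1 and 10.4 CPM without knockdown. The groups overlapped, and the log2 fold change was -0.08 (95% interval -0.70 to 0.53, adjusted p = 0.885, edgeR), a sign that turned without knockdown replicate 2 or 3 or no-knockdown replicate 1. ZNF274, which guides SETDB1 to the 3′ ends of zinc finger genes, had 71.0, 69.3 and 70.2 CPM in knockdown libraries and 81.1, 68.7 and 75.8 CPM without knockdown. Its log2 fold change was -0.10 (95% interval -0.37 to 0.16, adjusted p = 0.636).

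The imprinted ZNF331 had a log2 fold change of -0.10 (95% interval -0.38 to 0.17). ZNF568, whose mouse counterpart silences a placental Igf2 transcript, had 0.08 (-0.20 to 0.37), and ZNF350, which binds BRCA1, had 0.12 (-0.28 to 0.52), a sign that turned without no-knockdown replicate 2. ZNF382 and ZNF649, both KRAB repressors, had 0.12 each (-0.20 to 0.43 and -0.20 to 0.44). ZNF224, a repressor of the aldolase A gene, had 0.22 (-0.13 to 0.56), with AC084219.4 overlapping 40.5% of its exon length. All 6 intervals include 0.

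ZNF420 and ZNF85 passed only with the pairs as a block. ZNF420, a KRAB protein that restrains p53, had 54.3, 46.9 and 42.2 CPM in knockdown libraries and 43.7, 31.7 and 33.0 CPM without knockdown. The group ranges overlapped, while each knockdown library was above its own pair, with a log2 fold change of 0.40 (adjusted p = 0.174, and 0.0145 with the block). ZNF85 had 24.1, 17.8 and 15.0 CPM in knockdown libraries and 35.2, 25.0 and 21.4 CPM without knockdown. Here each knockdown library was below its pair, with a log2 fold change of -0.52 (adjusted p = 0.211, and 0.0058 with the block). The value ranged from -0.74 to -0.25 with 1 library left out, and it was -0.25 without no-knockdown replicate 1.

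Levels between genes were compared per kilobase of the counted exon length. The median member had 4.56 CPM per kb, with a range from 0.111 in ZNF208 to 64.2 in ZNF460. ZNF460 had 180.1, 208 and 204 CPM in knockdown libraries and 225, 287 and 248 CPM without knockdown. All knockdown values were lower, and the log2 fold change was -0.36 (adjusted p = 0.134, and 0.0193 with the block).

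The next in order per kilobase were ZNF146 (58.0 CPM per kb), a protein made almost only of fingers, then ZNF121 (43.8), ZNF91 (22.4) and ZNF552 (21.6). ZNF146 had a log2 fold change of -0.03 (95% interval -0.32 to 0.27), a sign that turned under 3 alternatives given at the end. ZNF121 had 0.04 (-0.26 to 0.35), a sign that turned without 1 of 2 libraries, and ZNF552 had 0.22 (-0.23 to 0.68, adjusted p = 0.539). Of the 5, ZNF91 was thus the one called without the block.

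The block alone called 16 further members as higher and 19 as lower. The higher ones had log2 fold changes from 0.31 to 1.22, with a median of 0.56, and the lower ones from -1.06 to -0.30, with a median of -0.49. Among the higher ones ZNF737 had 85.4, 55.3 and 57.1 CPM in knockdown libraries and 47.5, 31.9 and 36.1 CPM without knockdown. Replicate 1 was the highest in both groups, and each pair moved by a like amount, with a log2 fold change of 0.77 (adjusted p = 0.0585, and 0.000169 with the block).

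The others with the largest rises under the block were low in reads. ZNF556 had 1.87, 4.38 and 5.36 CPM in knockdown libraries and 1.16, 1.599 and 2.20 CPM without knockdown, a log2 fold change of 1.22 (adjusted p = 0.0933, and 0.0017 with the block). ZNF404 had 2.84, 3.38 and 3.25 CPM against 1.67, 1.76 and 1.94 CPM without knockdown, with no overlap and a log2 fold change of 0.82 (adjusted p = 0.0570, and 0.0117 with the block). ZNF865 (0.97, adjusted p = 0.0039 with the block) and ZNF837 (0.83, adjusted p = 0.0165 with the block) both peaked in replicate 2 of each group, and without knockdown replicate 2 the value for ZNF837 became -0.12. With 1 library left out ZNF865 ranged from 0.46, without knockdown replicate 2, to 1.69, without no-knockdown replicate 2.

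Of the members lower under the block, ZNF730 had 13.6, 10.6 and 8.79 CPM in knockdown libraries and 23.6, 19.2 and 15.0 CPM without knockdown. All knockdown values were lower, with a log2 fold change of -0.81 (adjusted p = 0.0611, and 0.0006 with the block). The pseudogene ZNF887P had the lowest log2 fold change of all members, -1.06 (adjusted p = 0.0636, and 0.0026 with the block), at 1.98, 2.33 and 1.14 CPM in knockdown libraries and 4.50, 3.96 and 3.08 CPM without knockdown. ZNF878 (-0.76), the pseudogene ZNF321P (-0.72) and ZNF492 (-0.64) were the next lowest of those called only with the block, at adjusted p of 0.0484, 0.0307 and 0.0107 with the block. ZNF492 shares 33.9% of its 50-base transcript words with other genes, 29.4% with ZNF98, so its count is uncertain.

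Along the chromosome the members form 14 groups when genes more than 1 Mb apart are split. The group from 7.07 to 9.79 Mb (15 members) held ZNF812P and ZNF561, and with the block 5 members rose there (33.3% of the group, beside 26.1% of all tested genes in either direction), the other 3 being ZNF358 (log2 fold change 0.66), ZNF846 (0.62) and ZNF559 (0.34). The group median was 0.04, from -0.046 to 0.15 with 1 library left out. The next group, from 11.5 to 12.6 Mb (24 members), had a median of -0.16, from -0.27 to -0.056 with 1 library left out, and positive values in 6 of 24 members.

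In that group of 24, 0 members passed the edgeR test without the block, 5 had an unadjusted p under 0.05, and DESeq2 called 1. With the block 5 of its members fell (ZNF887P, ZNF878, ZNF442, ZNF443 and ZNF823) and 1 rose (ZNF491), 25.0% of the group beside 26.1% of all tested genes. The pericentromeric group from 19.7 to 24.1 Mb (30 members), which holds ZNF91, ZNF826P, ZNF730 and ZNF737, had members moving in both directions around a median of 0.00 (-0.096 to 0.20 with 1 library left out), with 6 higher and 5 lower under the block (36.7% of the group).

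The 3 largest other groups had medians of 0.10 (36.2 to 37.8 Mb, 26 members), -0.03 (51.6 to 53.6 Mb, 40 members, a sign that turned with 1 library left out) and 0.06 (55.5 to 58.5 Mb, 59 members). Neighbours on the chromosome resembled each other weakly, with a Spearman rho of 0.19 over 235 pairs of adjacent members, given as a description since neighbours can share reads and sequence.

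**Figure D3:**
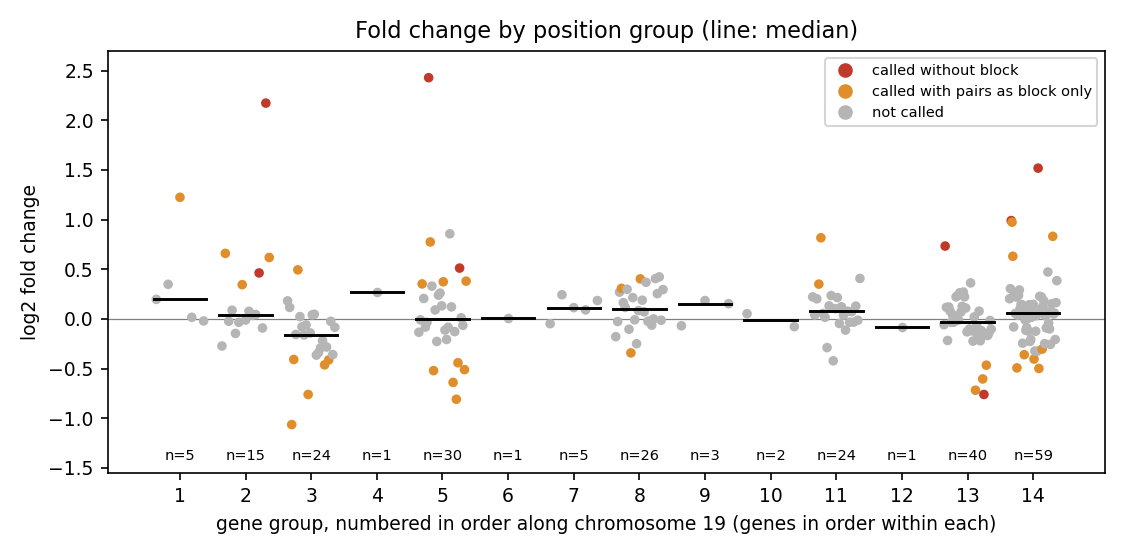
Log2 fold change of each of the 236 members, knockdown over no knockdown, in the 14 groups along chromosome 19 from left to right, with the group medians as lines. Medians lie between -0.16 (11.5 to 12.6 Mb) and 0.27 (a group of 1 gene), and the 8 genes called without the block lie in 4 of the groups, 2 in each.

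Members of the 19.7 to 24.1 Mb group share stretches of their promoters, and the promoters are shown because the genes that carry them moved in both directions under the block. The promoters of ZNF91, which rose, and ZNF730, which was called lower with the block, are given 5′ to 3′ from RefSeq on GRCh38.p14. Each runs from 250 bases before to 50 bases after the gene start listed there. The counted ZNF730 gene begins upstream of the printed stretch, at chr19:23075210. Capitals mark CTGTCACTCAGG and GTCCAATCAGGC, found by counting all 12-base words in the members' promoters and taking the 3 most frequent that share no stretch of 8 bases, the remaining one being given below.
ZNF91 (chr19:23395422-23395721, minus strand): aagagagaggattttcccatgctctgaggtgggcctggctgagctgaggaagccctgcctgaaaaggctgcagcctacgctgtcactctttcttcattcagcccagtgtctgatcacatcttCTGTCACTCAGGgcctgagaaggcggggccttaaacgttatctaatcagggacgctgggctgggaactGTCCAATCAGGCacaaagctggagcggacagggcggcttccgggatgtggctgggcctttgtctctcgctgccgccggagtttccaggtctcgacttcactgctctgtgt
ZNF730 (chr19:23116775-23117074, plus strand): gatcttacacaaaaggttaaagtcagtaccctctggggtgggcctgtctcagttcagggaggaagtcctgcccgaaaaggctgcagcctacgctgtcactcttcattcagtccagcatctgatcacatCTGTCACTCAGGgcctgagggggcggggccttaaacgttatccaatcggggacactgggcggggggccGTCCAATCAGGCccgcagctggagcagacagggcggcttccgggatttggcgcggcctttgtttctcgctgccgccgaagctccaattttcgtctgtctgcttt

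The table of promoters matched 201 of the 236 members by gene. On either strand CTGTCACTCAGG occurs in 18 of the 201 (8.96%) and in 19 of the 27104 other promoters (0.0701%), of which 12 belong to other ZNF genes. GTCCAATCAGGC occurs in 17 of the 201 (8.46%) and in 13 others (0.0480%), 8 of them ZNF genes. The words were picked for being frequent in these same member promoters, so the shares in members and in others are no test of a difference. Of the carriers 14 and 16 lie in the 19.7 to 24.1 Mb group, where 23 members have a promoter in the table. Each of the following lines shows 30 bases around the first word, in capitals, for members that were called higher (ZNF91, ZNF737 and ZNF493, the last 2 with the block), called lower with the block (ZNF730, ZNF492, ZNF85 and ZNF726) or not called (ZNF93).
ZNF91 (chr19:23395579-23395608, minus strand): tcacatcttCTGTCACTCAGGgcctgagaa
ZNF737 (chr19:20565888-20565917, minus strand): tcatatcttCTGTCACTCAGGgcctgaggg
ZNF493 (chr19:21396999-21397028, plus strand): tcatatcttCTGTCACTCAGGgcctgaagg
ZNF730 (chr19:23116894-23116923, plus strand): tgatcacatCTGTCACTCAGGgcctgaggg
ZNF492 (chr19:22634185-22634214, plus strand): ttacatcttCTGTCACTCAGGgcctgaggg
ZNF85 (chr19:20923120-20923149, plus strand): tcacatcttCTGTCACTCAGGgcctgaaaa
ZNF726 (chr19:23914748-23914777, plus strand): tgacatcttCTGTCACTCAGGgccttagaa
ZNF93 (chr19:19900812-19900841, plus strand): tcacatcttCTGTCACTCAGGtcctgaggg

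The 24 members with at least 1 of these words, 11 of them with both, had log2 fold changes from -0.81 to 0.86 and a median of -0.08. ZNF91 was the only one called without the block. With the block 5 rose (ZNF737, ZNF91, ZNF491, ZNF254 and ZNF493) and 5 fell (ZNF730, ZNF878, ZNF492, ZNF85 and ZNF726), 41.7% of the 24 beside 26.1% of all tested genes. Genes with the same word thus differed in direction, ZNF737 and ZNF726 among them. ZNF737 was above its pair in all 3 replicates. ZNF726 had 22.9, 20.6 and 13.6 CPM in knockdown libraries and 34.2, 26.5 and 20.9 CPM without knockdown, a log2 fold change of -0.51 (adjusted p = 0.226, and 0.0073 with the block) that ranged from -0.68 to -0.27 with 1 library left out.

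**Figure D4:**
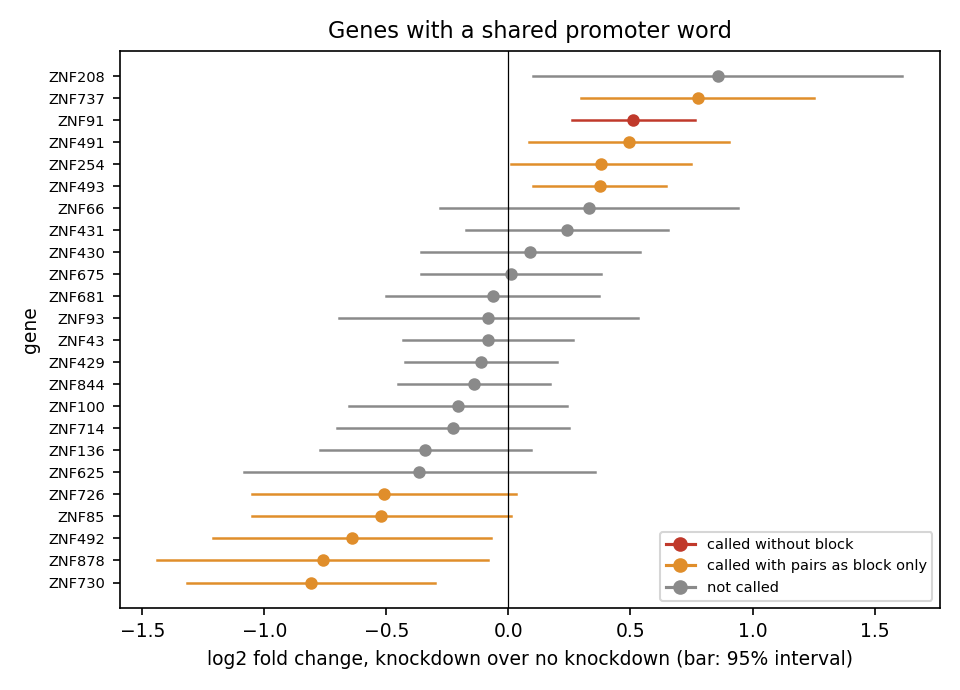
Log2 fold change, knockdown over no knockdown, with its 95% interval for the 24 members whose promoter holds either word. The estimates run from -0.81 (ZNF730) to 0.86 (ZNF208), on both sides of 0.

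The remaining word, GGGAAATGTAGT, occurs in 17 of the 201 member promoters and in 101 others (0.373%), with 7 of the 17 in the 36.2 to 37.8 Mb group. Member promoters held a median of 20 CG dinucleotides in 300 bases, against 14 over all 27305 promoters. In the 19.7 to 24.1 Mb group, whose promoters are shown above, the median was 10. Only members had to reach a count minimum. Across members the CG number and the log2 fold change had a Spearman rho of 0.09. ZNF826P, ZNF812P and ZNF524 have no entry in the promoter table.

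Coding sequences of 228 members were translated and searched by pattern for C2H2 fingers and a KRAB A box. The median number of fingers was 12, with the fewest in ZNF738 (0 by the pattern) and the most in ZNF208 (36), and the rho between fingers and log2 fold change was -0.10. The 190 members with a KRAB A box had a median log2 fold change of 0.02, with 4 higher and 1 lower, and 14 higher and 16 lower under the block. The 38 without the box had a median of 0.11, with 1 higher, and 7 higher and 1 lower under the block. The block thus called 15.8% with the box and 21.1% without it, beside 26.1% of all tested genes (11.2% higher and 14.9% lower). Without the block 7.60% of all tested genes were called. Median levels were 25.2 CPM with the box and 10.3 CPM without it. The 30 members with 7 fingers or fewer had a median of 0.16 (median level 12.3 CPM), and the 198 with more had 0.017 (24.6 CPM). The part of level in these differences was not tested.

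Reads may be shared among these related genes, and shared stretches of 50 bases in the annotated transcripts are given as a measure. The exons of 135 members overlap another gene of the count table, 80 on the same strand and 76 on the other. In 31 members 20% or more of the 50-base words occur in other genes, and the median over members was 4.23%. The 8 genes called without the block lay outside these 31, of which 8 were called with the block (25.8%, beside 26.1% of all tested genes).

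Like genes gave these counts. Of 234 ZNF genes on other chromosomes that met the same count minimum, 2 rose and 2 fell (1.71%), with a median log2 fold change of 0.09. With the block 29 rose (12.4%) and 10 fell (4.27%). Of 698 other protein-coding genes of chromosome 19, 13 rose and 38 fell (7.31%), with a median of -0.02. With the block 86 rose (12.3%) and 103 fell (14.8%). Over all tested genes the share called was 7.60% without the block, and 11.2% were higher and 14.9% lower with it. The difference between these sets was not tested.

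The proteins that KRAB domains recruit were followed through a list of their genes. Of 18 corepressor genes listed, 17 were tested, 3 fell (CBX5, DNMT1 and SUMO2) and 14 did not pass. Thus 17.6% were lower, beside 4.88% of all tested genes. Most of the 17 lay at 64 CPM or more, where 9.77% of all tested genes were lower. The block called 6, all lower (35.3%, beside 14.9% of all tested genes), and the list's median log2 fold change was -0.13. This list was set with earlier results of these data known.

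CBX5, the gene of HP1 alpha, which reads the histone mark that SETDB1 writes, had 114, 138 and 121 CPM in knockdown libraries and 427, 584 and 485 CPM without knockdown. The groups were widely apart, with a log2 fold change of -2.01 (adjusted p = 0.000646, edgeR), and the call held without any 1 library. DNMT1, the maintenance DNA methyltransferase, had 124, 101 and 94.3 CPM against 197, 234 and 145 CPM without knockdown, a log2 fold change of -0.85 (adjusted p = 0.029, edgeR). SUMO2, a small modifier that is attached to TRIM28, had 82.0, 68.7 and 52.8 CPM against 162, 99.0 and 120.3 CPM without knockdown, a log2 fold change of -0.90 (adjusted p = 0.037, edgeR). For DNMT1 and SUMO2 the groups did not overlap, but each call ended without knockdown replicate 2 or 3. The call of DNMT1 also ended without no-knockdown replicate 1 or 2 (adjusted p up to 0.118), and that of SUMO2 without no-knockdown replicate 1 or 3 (adjusted p up to 0.125).

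TRIM28 had 311, 295 and 268 CPM in knockdown libraries and 359, 436 and 313 CPM without knockdown. All knockdown values were lower, with a log2 fold change of -0.34 (adjusted p = 0.193, and 0.042 with the block). SETDB1 had 100.1, 84.9 and 89.1 CPM in knockdown libraries and 96.9, 78.8 and 95.1 CPM without knockdown. Those ranges overlapped, and the log2 fold change of 0.02 (adjusted p = 0.955) turned its sign without 1 of 2 libraries.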

How the data were processed

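The authors deposited whole-number read counts per gene for 6 bulk RNA libraries. Per the submitters' processing notes these came from bcl2fastq, STAR 2.5 on hg38 and featureCounts from Subread 1.6.5, and edgeR 3.20.8 was used. The labels' protocols name Trizol for the extraction and a TruSeq RNA kit for the libraries. The strand setting, annotation release and handling of multi-mapped reads are not given in the sources used here.

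From the deposited counts, edgeR 4.0.16 in R 4.3.3 was run on all genes after filterByExpr (21101 kept, all 236 members among them), with TMM scaling, a two-sided quasi-likelihood F test and Benjamini-Hochberg adjustment. CPM are TMM-scaled. Alternatives were RLE scaling, no filter, other count minimums, DESeq2 1.42.0, limma 3.58.1, leaving out each library, and a replicate block. Same-numbered libraries deviated together from their group means (correlations 0.637, 0.426 and 0.437, others -0.43 to 0.06), so they were taken as pairs. Deviations sum to 0 within a group, so higher values for same-numbered libraries go with lower values for the others by arithmetic. GENCODE 29 supplied gene types, and its coding sequences, translated, took the place of the protein table named in the plan. All 236 members were found there, 225 with the same coordinates.

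Members and lists were chosen with earlier results of these data known. Named genes were the called members, the 5 highest per kilobase, 12 fixed symbols, the extremes of fold change, up to 5 a direction called only with the block, and the corepressor genes called. Genes named for chromosome groups, shared words or neighbouring position were picked after their values were seen.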

Additional observations from a re-analysis of the deposited data

How the results depend on the processing

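The median log2 fold change of the members lay between -0.04 and 0.11 when 1 library was left out. Then 3 to 5 members were higher and 0 to 2 lower, and 69 to 92 (29.2% to 39.0%) had group ranges without overlap, beside 36.6% to 46.1% of all tested genes. Without no-knockdown replicate 1 the share was 37.7% of members and 36.6% of all tested genes, and in the other 5 fits it was lower in members. Of all tested genes, 0.778% to 2.32% were then called higher and 1.52% to 4.28% lower. With 2 libraries in a group the spread rests on the other group as well.

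DESeq2 called 11 members higher and 3 lower, the fit without a filter called 4 lower, and the block 23 higher and 20 lower. Of all tested genes DESeq2 called 4.26% higher and 6.82% lower, the fit without a filter 3.25% higher and 4.41% lower, and the block 11.2% higher and 14.9% lower. Of the corepressor list, 5 were lower without a filter, 5 with DESeq2 and 6 with the block. Leaving out 1 library gave 1 to 3 lower and medians from -0.22 to -0.023. Of the ZNF genes elsewhere, 6 were higher without a filter, 5 with the filter of 120 counts, 6 with DESeq2 and 29 with the block, and 1 was lower with RLE, 1 with 120 counts, 6 with DESeq2 and 10 with the block. Their median was 0.13 with 120 counts, and without 1 library 0 to 3 were higher, 0 to 1 lower, and the median 0.036 to 0.13. Of the other coding genes of chromosome 19, 47 were higher and 61 lower without a filter, 27 higher with DESeq2, and 86 higher and 103 lower with the block. Without 1 library 4 to 15 were higher, 8 to 35 lower, and the median -0.08 to 0.11. The cause of these shifts was not tested.

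Of the genes named by the rules given above, signs turned for 6, which were near 0 or low in reads. Sign turns of other members are not given here. ZNF146 had 0.015 with the filter of 120 counts. Over the fits without 1 library the log2 fold change ranged from -0.12 to 0.11 for ZNF146, from -0.046 to 0.19 for ZNF121, from -0.33 to 0.22 for ZNF93, from -0.016 to 0.22 for ZNF350, from -0.12 to 1.66 for ZNF837 and from -0.089 to 0.11 for SETDB1. ZNF561 lost its call with RLE (adjusted p = 0.0549, edgeR) and without a filter (0.0717). Members with few reads, such as ZNF826P and ZNF865, are limited by depth.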
